A study of Mus musculus with 6 samples.

Results

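The 9 genes Smarca4, Trim24, Trim28, Ctcf, Yap1, Tead4, Nfya, Pou5f1 and Sall4 encode proteins grouped here as maternal factors of zygotic genome activation (ZGA). They were chosen by name from the 24255 genes of the deposited expression table, and all 9 have a row there. A minimum of 1 FPKM (a fragment count divided by transcript length and by the total of the library) in at least 1 library left 6398 genes for testing, 7 of the 9 among them. Smarca4 stayed below 1 FPKM in every library, and Tead4 was listed at 0 throughout.

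RNA-Seq had been carried out on fully-grown oocytes (FGOs) at the germinal vesicle (GV) stage, immature oocytes that have finished growing and rest in the first meiotic prophase. WT mice were compared with Lsm14b-KO mice, which are homozygous for Lsm14b tm1a(KOMP)Mbp, a knockout-first, reporter-tagged insertion that is present in the whole animal and not only in oocytes, on a C57BL/6J background. LSM14B is an RNA-binding protein of oocytes. Oocytes were collected 46 h after all females had received PMSG, which stimulates follicles to grow, at 5 IU each. Each library was made from 20 pooled oocytes, with 3 libraries per genotype. The age of these mice is not given in the sources used here, and nothing says whether the libraries of a genotype came from separate animals, so p-values measure only the spread between libraries.

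A mouse oocyte stops transcription before it completes growth, and new transcription starts only in the embryo, with a minor wave in the zygote and a major wave at the 2-cell stage. The first factors of that activation are therefore made from mRNA stored in the oocyte. The members encode enzymes and cofactors that act on chromatin (SMARCA4, TRIM24, TRIM28) and an architectural protein (CTCF). They also encode the Hippo pathway coactivator YAP1, its DNA-binding partner TEAD4 and NFYA, a subunit of the CCAAT-binding factor NF-Y. Pou5f1 and Sall4 encode pluripotency factors. Tead4 was listed at 0 in all 6 libraries, so a stored mRNA of this member was not seen here. Stored mRNAs often carry short poly(A) tails, and Smart-seq2, the amplification used here, primes on the tail. A change in the amount of an mRNA and a change in its tail cannot be told apart in these data.

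The label of the knockout was first checked in each library. Here and throughout, 3 values of a genotype are those of replicates 1, 2 and 3, in that order. Lsm14b stood at 2.77, 3.98 and 1.72 FPKM in WT libraries, and at 0, 0 and 0.102 FPKM in the Lsm14b-KO libraries. All 10 oocyte markers reached 1 FPKM. Of 12 markers of cumulus and granulosa cells, 5 were at 0 in all libraries and 2, Fshr and Cyp19a1, reached 1 FPKM, with a summed level of 9.22 to 13.2 FPKM in WT and 5.46 to 8.4 FPKM in Lsm14b-KO libraries. Markers of red and white blood cells were all at 0, as were 5 of 6 markers of theca and stroma. The step between low FPKM values gave an estimate of relative depth of 1 to 1.14 in the WT libraries and 1.33, 1.94 and 2.17 in the Lsm14b-KO libraries, with WT replicate 1 set to 1. A gene listed at 0 may be one whose estimate failed, since 13 of 77 genes for ribosomal proteins had a 0 in some library.

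Several members bind DNA at known letters, so the promoters of the members themselves were searched for those letters. RefSeq promoters of build GRCm38.p6, from 250 bases before to 50 bases after each start site, were at hand for 7 of the 9 genes, all but Sall4 and Tead4. The letters CCAAT, bound by NF-Y, or their reverse complement ATTGG occurred in the promoters of 3 of the 7 genes (Trim24, Pou5f1 and Nfya) and in 37.4% of 32817 mouse promoters. GGAATG (reverse complement CATTCC), the core bound by TEAD proteins, occurred in 1 of the 7, Yap1, and in 14.7% of all promoters. The octamer ATGCAAAT (reverse complement ATTTGCAT), bound by POU proteins, occurred in none of the 7 and in 1.74% of all promoters. Trim24 and Pou5f1 had 2 promoters each and Nfya had 3, while each other gene searched had 1. Genes with more promoters had more windows to match, so these counts of genes are not like the shares of promoters. The motifs share no letters by overlap in the stretches shown, in which capitals mark the matched letters and each line runs 5′ to 3′ on the strand of the gene. They show where the recognition letters of NFYA and TEAD4 lie beside the genes described next. The match in Nfya precedes an internal start site of that gene.
Trim24, chr6:37870610-37870639, plus strand: acacacagcgagCCAATcagcggccgcggt
Trim24, chr6:37870734-37870763, plus strand: ggcgcggcggtcATTGGatggcgctcggct
Nfya, chr17:48400700-48400729, minus strand: gatgagcatctcCCAATggtgctcatttat
Yap1, chr9:8004720-8004749, minus strand: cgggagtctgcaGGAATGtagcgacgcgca
In Trim24 the matches begin 189 and 65 bases before the start site, in Nfya 137 bases before it and in Yap1 141 bases before it. A match of letters describes these windows and is not a measurement of binding.

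FPKM accounts for transcript length, so the levels of the members can be set in order. In WT FGOs Sall4 was the most abundant member, at 9.16 FPKM ± 1.05 (SD, n = 3), and its rank was 1955 of the 6398 tested genes. Trim24 (2.21 FPKM ± 0.25) and Ctcf (2.05 FPKM ± 0.353) followed, with ranges that overlapped each other. Yap1, Nfya, Pou5f1 and Trim28 came next with means between 0.473 and 1.12 FPKM, and each overlapped the next in that order. Smarca4 and Tead4 were at or near 0. In Lsm14b-KO FGOs Sall4 again led, at rank 605, and Trim24 was above Ctcf without overlap. Trim28 ranked after Pou5f1 in WT FGOs and before Nfya and Pou5f1 in Lsm14b-KO FGOs, although its range still overlapped those of Yap1 and Nfya there.

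**Figure D1:**
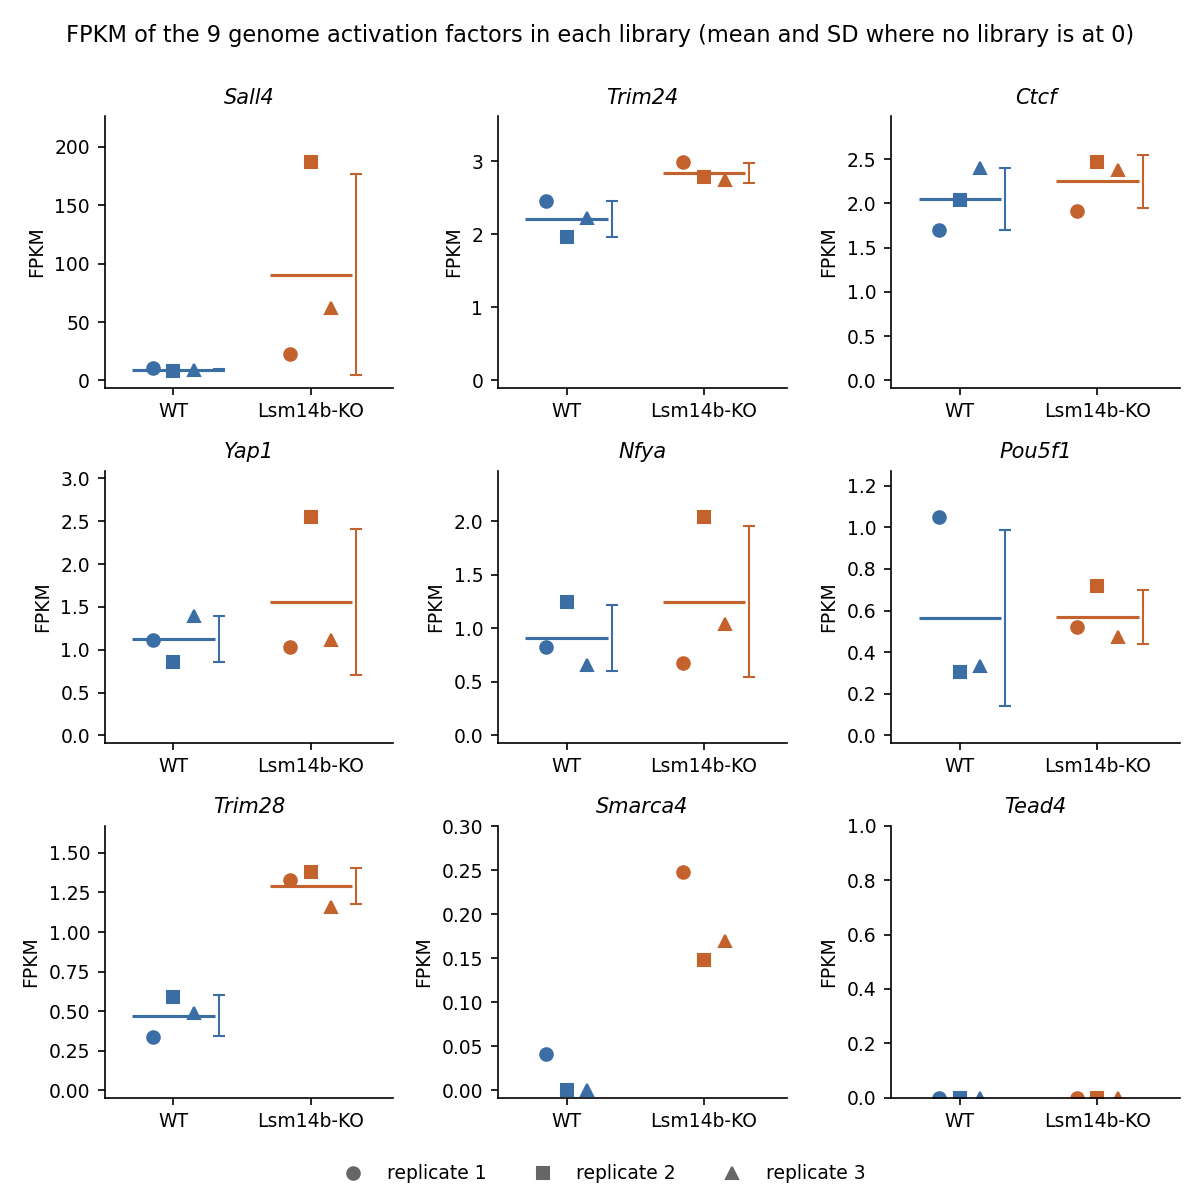
FPKM (y axes, linear, each panel on its own scale) of the 9 genes in the 3 WT (blue) and 3 Lsm14b-KO (orange) libraries, where marker shape gives the replicate number, lines are group means and bars are SD; no mean is drawn where a library is at 0. Sall4, Trim24, Trim28 and Smarca4 have all 3 Lsm14b-KO values above all 3 WT values.

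Of the 7 tested members, 2 passed the test between genotypes, Sall4 and Trim28, and both rose in Lsm14b-KO FGOs. Trim28 had reached the minimum of 1 FPKM only in its Lsm14b-KO libraries, where it was higher, and with no minimum neither member passed. Limma with Benjamini-Hochberg adjustment called 21.6% of all tested genes at an adjusted p under 0.05, 6.38% higher and 15.2% lower in the knockout. In 3 of the 7, Sall4, Trim28 and Trim24, the Lsm14b-KO values lay above the WT values without overlap, beside 19.1% of all tested genes, and in none did they lie below without overlap, beside 26.0% of all tested genes. No member passed the test in the lower direction. The median log2 fold change over all tested genes was -0.08, and all fold changes that follow are of FPKM + 1, Lsm14b-KO minus WT, which understates the change of genes near or below 1 FPKM. With 3 libraries against 3, the exact two-sided permutation test of a single gene cannot give a p below 0.10.

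**Figure D2:**
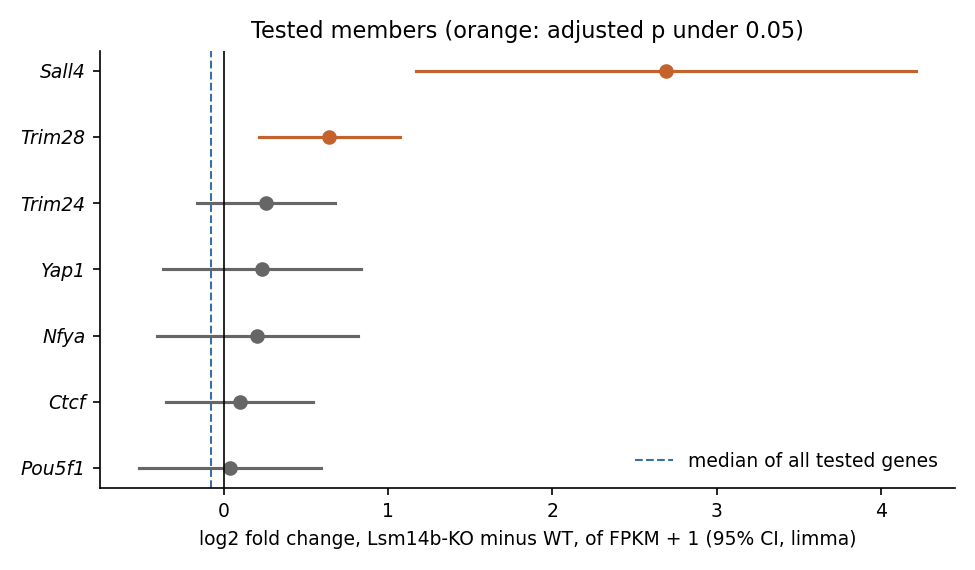
Log2 fold change of FPKM + 1 (x axis, Lsm14b-KO minus WT) of the 7 tested members, with points for the estimate, lines for the 95% confidence interval from limma, orange for an adjusted p under 0.05 and a dashed line for the median of all tested genes (-0.08). The intervals of Sall4 and Trim28 lie above 0, and those of the other 5 members include 0.

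SALL4 is a zinc finger transcription factor of pluripotent cells and germ cells. Its mRNA stood at 10.3, 8.33 and 8.82 FPKM in WT and at 22.4, 187 and 62.3 FPKM in Lsm14b-KO FGOs. The groups did not overlap, and the 3 Lsm14b-KO libraries were far apart, with replicate 2 highest and replicate 1 closest to WT. The mean was 90.6 FPKM ± 85.9 (SD, n = 3) in Lsm14b-KO FGOs, 9.89 times that in WT FGOs. Sall4 rose with a log2 fold change of 2.69 (SE 0.66, 95% CI 1.17 to 4.21, limma, adjusted p = 0.0272), the 8th largest of the 6398. These values rest on an estimated 173 to 197 fragments in each WT library and 565, 6900 and 2570 fragments in the Lsm14b-KO libraries. The source of the spread between the knockout libraries was not tested. In pools of oocytes, a large change in some cells and a smaller one in all cannot be told apart. On the log2(FPKM + 1) scale the SD of Sall4 was 0.15 in WT and 1.5 in Lsm14b-KO libraries, where the median SD of all tested genes was 0.21 and 0.37.

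With Lsm14b-KO replicate 2 left out, Sall4 had a log2 fold change of 1.93 (limma, adjusted p = 0.0304), and without replicate 1 it was 3.43 (adjusted p = 0.00149). The call was lost when any of the other 4 libraries was left out, at adjusted p values up to 0.104, the highest of the 15 alternatives. Sall4 lies on chromosome 2 at chr2:168748332-168767943 (minus strand, GRCm38). The gene Gm14261, a processed transcript on the other strand, overlaps exon sequence of Sall4. It holds a stretch nearly identical to Sall4, and whether that stretch is the overlap itself was not checked. The sources do not say that strand was used in counting, so reads of the pair cannot be told apart. Of the paralogs, Sall1 and Sall3 were listed at 0 in all 6 libraries. Sall2 ranged from 0 to 0.28 FPKM in WT and from 0.169 to 0.287 FPKM in Lsm14b-KO libraries, and was too low to be tested.

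The genes whose 6-library profile was closest to that of Sall4, among 2560 tested genes with a mean of at least 5 FPKM, were Sumo3 and Per3. Closeness was measured as the root mean square difference of log2(FPKM + 1) after each gene's mean was subtracted, and was 0.34 for Sumo3 and 0.38 for Per3. Sumo3, which encodes a small ubiquitin-like modifier, stood at 7.6, 4.96 and 8.65 FPKM in WT and at 11.9, 92.7 and 31.9 FPKM in the Lsm14b-KO libraries. Per3, a circadian clock gene, stood at 0.744, 1.15 and 1.32 FPKM and at 2.11, 44.5 and 16.3 FPKM in the same order. In both, as in Sall4, Lsm14b-KO replicate 2 was highest, then replicate 3, then replicate 1. Both genes were picked for closeness over these same libraries, so the shared order largely follows from that choice.

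TRIM28 and TRIM24 are related tripartite motif proteins that act as transcriptional cofactors. TRIM28 (KAP1) is recruited by zinc finger proteins to silence retrotransposons and protect imprints. Trim28 was at 0.337, 0.591 and 0.491 FPKM in WT and at 1.33, 1.38 and 1.16 FPKM in the Lsm14b-KO libraries. The groups were tight and well apart, with means of 0.473 FPKM ± 0.128 and 1.29 FPKM ± 0.115 (SD, n = 3 each). Trim28 rose with a log2 fold change of 0.64 (SE 0.19, 95% CI 0.21 to 1.07, limma, adjusted p = 0.0447). It entered the test only through its Lsm14b-KO libraries, being 1 of 168 genes that were below 1 FPKM in all WT and at or above it in all Lsm14b-KO libraries, so the filter favoured a difference.

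The estimated fragments behind Trim28 were few, 3.98, 7.96 and 5.98 for WT and 20.9, 31.7 and 29.9 for Lsm14b-KO FGOs. Its call held in 6 of 15 alternatives, with adjusted p values from 0.024 to 0.126 by limma, and in only 1 of the 6 when a library was dropped, the fit without Lsm14b-KO replicate 1. The direction was the same in all 15. Trim28 lies at chr7:12999114-13031035 (plus strand, GRCm38), and no exon of another gene overlaps its own. Srsf3, a splicing factor gene, and Rpe, which encodes an enzyme of the pentose phosphate pathway, had the closest profiles (root mean square differences of 0.08 and 0.09). Adding 1 shrinks the changes of members near or below 1 FPKM, so a close profile is not an equal ratio of FPKM. The mean of Trim28 rose 2.73 times. Srsf3 stood at 18.3, 23.8 and 20.6 FPKM in WT and at 30, 32.1 and 31.7 FPKM in Lsm14b-KO libraries.

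TRIM24 reads histone marks through its PHD finger and bromodomain. Trim24 stood at 2.46, 1.96 and 2.22 FPKM in WT and at 2.99, 2.79 and 2.74 FPKM in the Lsm14b-KO libraries. Each Lsm14b-KO value exceeded each WT value, but by little. The log2 fold change of 0.26 (95% CI -0.16 to 0.68) missed the threshold by limma (adjusted p = 0.309), and it missed it in all 15 alternatives. An increase of up to 0.68 on that scale lies within the interval. The estimated fragments ranged from 33.4 to 36.8 in WT and from 59.4 to 88.8 in Lsm14b-KO libraries. The most similar profiles were those of Sypl and Zwint, each at 0.08.

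Partners of TRIM28 in silencing were taken as a list of 13 genes with the TIF1 relatives, of which 9 were tested. Of these, 1 rose and none passed the test in the lower direction. The median log2 fold change was 0.60, but 3 of the 9 (Cbx3, Zfp445 and Morc3) had reached 1 FPKM only in Lsm14b-KO libraries, and over the other 6 the median was 0.29, beside -0.08 over all tested genes. The gene that rose was Cbx3, which encodes a heterochromatin protein HP1 that binds methylated histone H3. It stood at 0.164, 0.287 and 0 FPKM in WT and at 1.35, 1.18 and 1.43 FPKM in the Lsm14b-KO libraries (log2 fold change 1.02, limma, adjusted p = 0.0129). It passed in 13 of 15 alternatives. Reads of Cbx3 may also be split with 9 genes, mostly its pseudogenes, that hold nearly identical stretches.

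Setdb1, the histone methyltransferase that TRIM28 recruits, stood at 1.37, 1.52 and 1.29 FPKM in WT and at 2, 3.46 and 2.1 FPKM in Lsm14b-KO libraries. The groups did not overlap, but the log2 fold change of 0.53 (95% CI 0.03 to 1.04) missed the threshold by limma (adjusted p = 0.11). Trim33, the third TIF1 relative, stayed under 1 FPKM, with 0.235 to 0.413 FPKM in WT and 0.618 to 0.798 FPKM in Lsm14b-KO libraries.

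SMARCA4 (BRG1) is an ATPase of the SWI/SNF chromatin remodelling complexes. Smarca4 was listed at 0.041, 0 and 0 FPKM in WT and at 0.248, 0.148 and 0.17 FPKM in the Lsm14b-KO libraries. All 3 Lsm14b-KO values were above the WT values, as were those of 10.9% of the 7927 genes that were above 0 but under 1 FPKM throughout. The estimate came to about 1 fragment in 1 WT library and none in the other two, and to 7.94, 6.91 and 8.94 fragments in the Lsm14b-KO libraries, which were also the deeper ones. When all genes above 0 were tested, Smarca4 missed the threshold (log2 fold change 0.23, limma, adjusted p = 0.0602), and 5.03% of the 14325 genes then passed it. Smarca4 lies at chr9:21616169-21704230 (plus strand, GRCm38). Gm27373, annotated as a miscellaneous RNA on the same strand, overlaps exon sequence of Smarca4.

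The paralogous ATPase gene Smarca2 (BRM) was far more abundant than Smarca4 per length of transcript, at 63.7, 61 and 66.9 FPKM in WT and 71, 103 and 118 FPKM in the Lsm14b-KO libraries. The groups did not overlap, and the log2 fold change of 0.57 (95% CI -0.12 to 1.26) missed the threshold by limma (adjusted p = 0.189). Smarca2 passed in 2 of 15 alternatives, with quantile normalization (1.18, adjusted p = 0.0476 by limma) and without Lsm14b-KO replicate 1 (0.78, adjusted p = 0.0134), and under TPM it stood at 1.25 (adjusted p = 0.0514). Of 25 further SWI/SNF genes, Smarca2 included, 13 were tested. None passed in the higher direction, 1 fell, and the median log2 fold change was -0.38. The gene that fell was Ss18, a subunit gene of the complexes, at 4.41, 2.72 and 3.3 FPKM in WT and 1.13, 1.9 and 1.2 FPKM in Lsm14b-KO libraries (log2 fold change -0.89, limma, adjusted p = 0.031). Its call was lost in 7 of 15 alternatives, and under TPM, a rescaling of each library to the same sum, its log2 fold change was -0.40 (adjusted p = 0.355 by limma).

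Arid1a, which encodes the large DNA-binding subunit, was also lower without overlap, at 2.79, 2.84 and 2.44 FPKM against 1.77, 1.56 and 1.16 FPKM, but missed the threshold (log2 fold change -0.57, limma, adjusted p = 0.067). Arid1a passed in 2 of 15 alternatives, after correction for length and GC content (-0.92, adjusted p = 0.0271 by limma) and without Lsm14b-KO replicate 1 (-0.65, adjusted p = 0.0323), and under TPM it stood at -0.11 (adjusted p = 0.75). The core subunit gene Smarcb1 overlapped between the groups, with 1.45 to 4.28 FPKM in WT and 0.967 to 3.55 FPKM in Lsm14b-KO libraries. Smarcc1 stayed at or below 0.214 FPKM in all 6 libraries. Arid1b (log2 fold change 0.61, limma, adjusted p = 0.0707) and Smarcd2 (0.55, adjusted p = 0.0949) were higher without overlap and missed the threshold. Smarce1 (-0.51), Actl6a (-0.38) and Dpf3 (-0.63) were lower without overlap and missed it too. Arid1b had reached 1 FPKM only in Lsm14b-KO libraries and Smarce1 only in WT libraries.

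CTCF binds insulators and, with cohesin, shapes chromatin loops. Ctcf was at 1.7, 2.04 and 2.4 FPKM in WT and at 1.92, 2.47 and 2.38 FPKM in the Lsm14b-KO libraries. The groups overlapped almost fully. The log2 fold change was 0.10 with a 95% CI from -0.35 to 0.54 (limma, adjusted p = 0.721; exact permutation p = 0.6), on 23.6 to 71.9 estimated fragments per library. Ctcf lies at chr8:105636568-105682922 (plus strand, GRCm38), where the genes Agrp and Gm5914 overlap its exon sequence on the other strand. Agrp itself was listed at 0 in all Lsm14b-KO libraries and in WT replicates 1 and 2. The profile most like that of Ctcf was that of Ywhaq, a 14-3-3 protein gene (0.04), and this was the closest match of any tested member.

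Of 13 genes of CTCF and cohesin, 6 were tested, and 1 fell while none passed in the higher direction, with a median log2 fold change of 0.06. Smc3, a core cohesin subunit gene, fell from 1.09, 1.25 and 1.27 FPKM in WT to 0.37, 0.336 and 0.554 FPKM in the Lsm14b-KO libraries (log2 fold change -0.64, limma, adjusted p = 0.0449). It entered the test only through the WT libraries, where it was higher, as did 2 more of the 6. The call of Smc3 held in 6 of 15 alternatives, and under TPM its log2 fold change was -0.35 (adjusted p = 0.262 by limma). Rad21, the cleavable cohesin subunit gene, was on the other side, at 2.78, 2.9 and 2.12 FPKM in WT and 3.23, 5.06 and 5.06 FPKM in Lsm14b-KO libraries, without overlap and without passing the test (log2 fold change 0.58, limma, adjusted p = 0.0998). Rad21 passed in 1 of 15 alternatives, without Lsm14b-KO replicate 1 (0.76, adjusted p = 0.0202 by limma). Ctcfl, the germline paralog of Ctcf, was listed at 0 in all 6 libraries.

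YAP1 is the coactivator that the Hippo kinases restrain, and TEAD4 brings it to DNA. Yap1 stood at 1.11, 0.859 and 1.39 FPKM in WT and at 1.03, 2.55 and 1.11 FPKM in the Lsm14b-KO libraries. A single library, Lsm14b-KO replicate 2, was above the WT range, and the other two lay inside it. The log2 fold change was 0.23 with a 95% CI from -0.37 to 0.84 (limma, adjusted p = 0.518; exact permutation p = 0.6), and it was -0.03 without that library. Yap1 lies at chr9:7931999-8004596 (minus strand, GRCm38), with Gm20416 overlapping an exon on the other strand. Glce, which encodes an enzyme of heparan sulphate synthesis, had the closest profile (0.08).

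Tead4, at chr6:128224288-128300823 (minus strand, GRCm38), was at 0 in all 6 libraries. Its relatives were at or near 0 too. Tead3 was at 0 throughout, Tead1 and Tead2 were at 0 in WT, and their highest Lsm14b-KO values were 0.042 and 0.0661 FPKM. Wwtr1, which encodes the YAP1 paralog TAZ, was at 0.685, 0.351 and 0.722 FPKM in WT and at 0.258, 0.205 and 0.105 FPKM in the Lsm14b-KO libraries. Those groups did not overlap, in the lower direction, but the gene was under the minimum for testing. Of 19 genes of Hippo, YAP and TEAD, 5 were at 0 in all libraries and 2 were tested, Stk3 and Mob1b, and neither passed. Stk3, a Hippo kinase gene, was at 5.13, 6.41 and 5.72 FPKM in WT and at 5.86, 5.03 and 6.6 FPKM in Lsm14b-KO libraries.

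NFYA is the subunit of NF-Y that reads CCAAT, and it needs the histone-fold subunits NFYB and NFYC to do so. Nfya stood at 0.824, 1.25 and 0.655 FPKM in WT and at 0.677, 2.04 and 1.04 FPKM in the Lsm14b-KO libraries. The groups overlapped, with replicate 2 of the knockout again highest. The log2 fold change was 0.20 with a 95% CI from -0.41 to 0.82 (limma, adjusted p = 0.578; exact permutation p = 0.6), and -0.04 without that library. Nfya lies at chr17:48386885-48409906 (minus strand, GRCm38). Pex13, a peroxisome gene, had the closest profile (0.07).

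The other two subunits differed between knockout libraries in opposite ways. Nfyb was at 5.95, 7.52 and 6.73 FPKM in WT, and at 6.37, 1.36 and 1.52 FPKM in the Lsm14b-KO libraries. Nfyc was at 4.44, 4.7 and 5.97 FPKM in WT, and at 4.75, 19.2 and 13.1 FPKM in the Lsm14b-KO libraries. In both genes replicate 1 of the knockout lay within the WT range, while replicates 2 and 3 lay below it for Nfyb and above it for Nfyc.

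Neither subunit passed the test over all libraries, with log2 fold changes of -1.13 for Nfyb (limma, adjusted p = 0.0897) and 0.97 for Nfyc (adjusted p = 0.137). Without Lsm14b-KO replicate 1 both did, at -1.66 (adjusted p = 0.00109) and 1.49 (adjusted p = 0.00347). That setting raised the number of genes called from 1383 to 2898. It is 1 of 15 alternatives, and the other 14 called neither subunit. A nearly identical stretch of Nfyc is held by Gm9144, so its reads may be split.

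**Figure D3:**
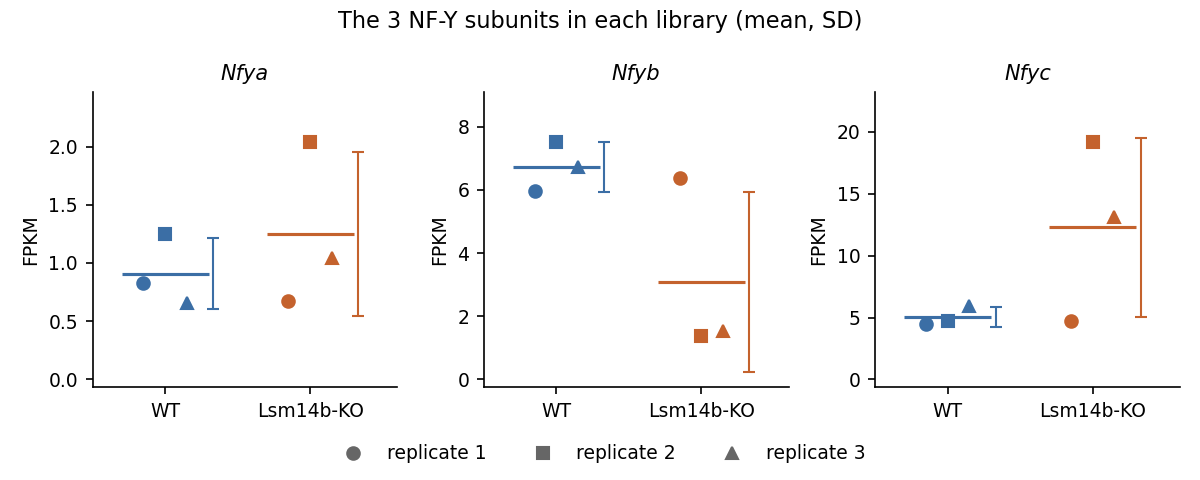
FPKM (y axes, linear from 0) of the NF-Y subunit genes Nfya, Nfyb and Nfyc in the 3 WT (blue) and 3 Lsm14b-KO (orange) libraries, with marker shape for the replicate number, lines for means and bars for SD. Lsm14b-KO replicate 1 stays inside the WT range for all 3 genes, while replicates 2 and 3 are low for Nfyb (1.36 and 1.52 FPKM) and high for Nfyc (19.2 and 13.1 FPKM).

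POU5F1 (OCT4) is a core transcription factor of pluripotency. Pou5f1 was at 1.05, 0.303 and 0.335 FPKM in WT and at 0.519, 0.717 and 0.475 FPKM in the Lsm14b-KO libraries. It entered the test through WT replicate 1 alone, and the Lsm14b-KO values all lay inside the WT range. The log2 fold change was 0.04 with a 95% CI from -0.52 to 0.59 (limma, adjusted p = 0.919; exact permutation p = 1). No library held more than an estimated 6.1 fragments of it, and a difference inside that interval was not detectable at this depth. Pou5f1 lies at chr17:35506018-35510772 (plus strand, GRCm38), with the antisense gene Gm19553 over an exon. Dcakd had the closest profile (0.12).

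Sox2 and Nanog, the usual partners of POU5F1, were at or below 0.231 and 0.141 FPKM in every library. Of 18 genes of pluripotency, 4 were at 0 in all libraries and 3 were tested, with 1 that rose, none that fell and a median log2 fold change of 0.32. The gene that rose was Klf17, a Krüppel-like factor of oocytes and early embryos, which went from 4.16, 4.51 and 4.63 FPKM in WT to 7.12, 16.1 and 8.54 FPKM in the Lsm14b-KO libraries (log2 fold change 1.02, limma, adjusted p = 0.0487). The call of Klf17 held in 5 of 15 alternatives, and in 1 of the 6 that left out a library, without Lsm14b-KO replicate 1. Reads of Klf17 may be shared with Gm20690.

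Lists of other maternal factors linked to genome activation and of 2-cell genes were read for comparison. Of the 25 other maternal factors, 11 were tested, with 1 that rose, 1 that fell and a median log2 fold change of 0.34. Ythdf2, which encodes a reader of N6-methyladenosine that promotes mRNA decay, rose from 3.5, 2.55 and 3.21 FPKM in WT to 11.6, 21.3 and 19.2 FPKM in the Lsm14b-KO libraries (log2 fold change 2.13, limma, adjusted p = 0.00328). Btg4, which encodes an adaptor for deadenylation of maternal mRNAs, fell from 4980, 4440 and 5530 FPKM to 1090, 1450 and 1520 FPKM (log2 fold change -1.89, limma, adjusted p = 0.00474). The groups of both genes were far apart, and Ythdf2 passed in all 15 alternatives and Btg4 in 14. Ythdf2 holds stretches nearly identical to 2 other genes, and the gene Layn overlaps exon sequence of Btg4 on the other strand.

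Of 19 genes expressed at the 2-cell stage, 17 were in the table and 6 were tested. None rose, 1 fell and the median log2 fold change was 0.60. The 4 genes with a positive log2 fold change were all Zscan4 genes, each highest in Lsm14b-KO replicate 2. Zscan4b reached 1 FPKM only in that library. Tcstv1 was lower without overlap, with means of 636 FPKM in WT and 378 FPKM in Lsm14b-KO libraries, but missed the threshold (limma, adjusted p = 0.076). Tcstv3, a gene of the 2-cell stage, fell from 180, 186 and 190 FPKM to 101, 110 and 82.2 FPKM (log2 fold change -0.93, limma, adjusted p = 0.0475), and its reads may be split with 2 near copies. The call of Tcstv3 held in 6 of 15 alternatives. Its log2 fold change was -0.24 under TPM, -0.31 with quantile normalization and -0.21 after correction for length and GC content, with adjusted p values up to 0.641 by limma. In all, these lists and those of the partners held 133 genes, of which 52 were tested, 3 rose, 4 fell and 45 did not pass, beside 6.38% called higher and 15.2% called lower over all tested genes. Of the 52, 10 had reached 1 FPKM only in Lsm14b-KO and 6 only in WT libraries.

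**Figure D4:**
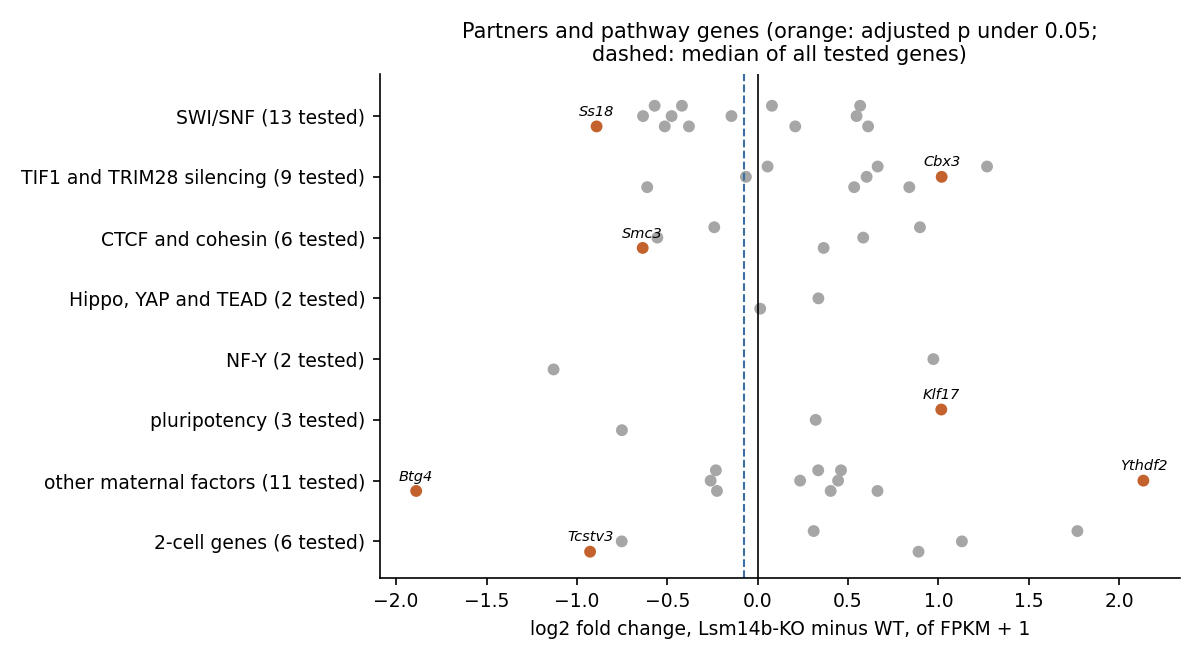
Log2 fold change of FPKM + 1 (x axis, Lsm14b-KO minus WT) of the 52 tested genes of 8 partner and pathway lists (rows, points spread vertically only to part them), with genes at an adjusted p under 0.05 in orange and named, and the median of all tested genes dashed. Cbx3, Klf17 and Ythdf2 lie on the higher side, and Ss18, Smc3, Btg4 and Tcstv3 on the lower.

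In Lsm14b-KO libraries the members did not share one order. Replicate 2 held the highest value of 6 of the 8 members above 0 (Trim28, Ctcf, Yap1, Nfya, Pou5f1 and Sall4), beside 35.0% of all tested genes. Replicate 1 held the highest value of Trim24 and Smarca4, beside 46.2% of tested genes. Replicate 3 held that of no member, beside 18.8%.

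Fold changes in the whole table moved with transcript length. Their median was -0.63 for transcripts under 1000 nt and 0.34 for those of 5000 nt or more, and 8 of the 9 members are longer than 3000 nt. Sall4 (5073 nt) was far above the median of its length class, Trim28 (3245 nt) was above its class median of 0.24, and Trim24 (4042 nt) and Yap1 were close to theirs of 0.22. In that of Trim28, 11.2% of genes were called higher. After correction for length and GC content the log2 fold change of Sall4 was 2.43 and that of Trim28 0.52, while Trim24 stood at 0.07, Yap1 and Nfya at 0.03 and Ctcf at -0.06. Pou5f1 (1362 nt), whose class median was -0.32, moved the other way, to 0.27. Trim28 then missed the threshold (limma, adjusted p = 0.0863).

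**Figure D5:**
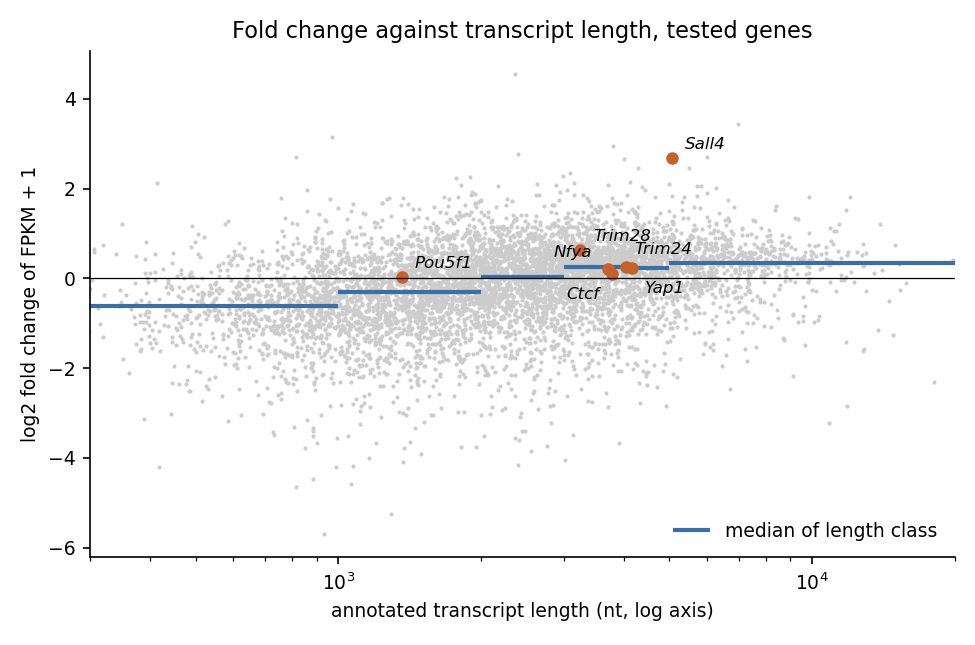
Log2 fold change of FPKM + 1 (y axis, Lsm14b-KO minus WT) against annotated transcript length (x axis, nt, log scale) of the tested genes (grey), with the median of each length class (blue lines) and the 7 tested members (orange). Sall4 stands well above the line of its class, Trim28 above its own, and Trim24, Yap1, Nfya and Ctcf near theirs.

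Scaling mattered in the same way, since FPKM sums ranged from 564670 to 1244182 between libraries. Under TPM the median of all tested genes moved up by 0.48. Relative to that median, the log2 fold change was 2.95 for Sall4, 0.59 for Trim28, 0.37 for Trim24, 0.27 for Yap1, 0.21 for Nfya, 0.19 for Ctcf and -0.08 for Pou5f1. The calls of Sall4 and Trim28 were the same under TPM, and no further member passed. The share of limma calls that were higher in Lsm14b-KO FGOs was 29.5% in the main fit on FPKM and 63.2% under TPM.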

How the data were processed

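The authors aligned reads to mm10 with TopHat2 2.0.13 and computed FPKM with Cufflinks 2.2.1, per the labels. The deposited table holds 6 FPKM columns, and its columns of fold changes, p-values and q-values from the authors' own comparison were not used. More than 1 library kit is named in the sources, and strandedness is not given. FPKM carries no counts, so limma 3.58.1 (R 4.3.3, eBayes with trend) was fitted to log2(FPKM + 1) of genes that reached 1 FPKM in any library, with Benjamini-Hochberg adjustment over 6398 genes. Alternatives were pseudocounts of 0.1 and 0.01, filters, TPM, quantile normalization, correction for length and GC content, no trend, a replicate block and leaving out each library. The fit was also run on simulated data in which each gene had the same SD in both genotypes. The real median SD on log2(FPKM + 1) was 0.21 in WT and 0.37 in Lsm14b-KO libraries. Genes with unequal spread, Sall4 among them, were therefore not covered by that run. Fragments were estimated from the step between low FPKM values and GENCODE vM21 transcript lengths minus an assumed fragment of 250 nt. Of low genes with 1 transcript, 75.4% to 81.8% were within 0.15 of a whole fragment. Copies were sought with blastn 2.17.0 (95% identity over 200 nt). The members, lists and the rule for named genes (members, their fixed partners and paralogs, up to 3 called genes per list with the largest change, and the closest profiles) were chosen with earlier results of these data known. Stk3 was named because the tested list held only 2 genes. Arid1b, Smarcd2, Smarce1, Actl6a and Dpf3 were named after their values were seen.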

Additional observations from a re-analysis of the deposited data

How the results depend on the processing

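Sall4, Trim28 and Trim24 kept their direction in all 15 alternatives. The sign turned for Ctcf (-0.06 after length and GC correction), and for Yap1, Nfya and Pou5f1 when 1 library was left out (-0.026 to 0.376 for Yap1, -0.035 to 0.393 for Nfya, -0.079 to 0.248 for Pou5f1). None of these 4 passed the test in any of their 14 or 15 alternatives. The causes were not tested. Among partners, Smarcb1 was at 0.018 under TPM.

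The count of members called was 2, and 0 with no filter on low values, 1 without the trend, 1 after length and GC correction and 0 to 2 when 1 library was left out. Trim28 missed the threshold with no filter (0.64, adjusted p = 0.0765 by limma), without the trend (0.64, adjusted p = 0.055) and after length and GC correction (0.52), and its log2 fold change was 0.57 to 0.70 when 1 library was left out. Sall4 missed it with no filter (2.69, adjusted p = 0.074) and ranged from 1.93 to 3.43 when 1 library was left out. Over all tested genes, 720 were called with no filter (178 higher), 833 were called higher under TPM, and leaving out 1 library gave 315 to 2898 calls, 39 to 1151 of them higher. Partner genes called numbered 2 to 21 when 1 library was left out.

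Replicate numbers are shared between genotypes, but same-numbered libraries did not deviate together (r = 0.19, -0.13 and 0.02). With the number as a replicate block, 1244 genes, 1 member and 3 partner genes were called, and Trim28 stood at 0.64 (adjusted p = 0.0806 by limma). Depth limits Smarca4, Pou5f1 and Trim28 most. Groups of 3 libraries are too small for a test of single outlying libraries.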

Other observations

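A few further genes, chosen after their values were seen, may interest readers of the lists. Tfap2c, which encodes a transcription factor of the early embryo, was at 0.501, 1.4 and 0.389 FPKM in WT and at 0, 0.0514 and 0 FPKM in the Lsm14b-KO libraries. The groups did not overlap, but it missed the threshold (log2 fold change -0.75, limma, adjusted p = 0.0689). Tfap2c entered the test only through WT replicate 2, in the genotype where it was higher. Its WT values rested on an estimated 5.12, 16.3 and 4.09 fragments. Zfp57, the zinc finger gene that brings TRIM28 to imprinted loci, was at 211, 197 and 285 FPKM in WT and at 234, 954 and 748 FPKM in the Lsm14b-KO libraries. Knockout replicate 1 lay within the WT range and the others far above it, and the gene missed the threshold (log2 fold change 1.27, limma, adjusted p = 0.114). Zscan4d, of the 2-cell gene family Zscan4, was at 2.78, 4.09 and 8.35 FPKM in WT and at 8.34, 75.5 and 8.99 FPKM in the Lsm14b-KO libraries. A single library, Lsm14b-KO replicate 2, stood apart, and the test was missed (log2 fold change 1.77, limma, adjusted p = 0.132).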
